A study of Mus musculus with 2 samples.

Results

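The interstitial collagens and the enzymes that process them were followed as a set of 38 genes, of 33696 genes listed in each library. The set held 15 collagen chains and 23 genes whose products hydroxylate, fold, bind, trim or cross-link them. It was chosen by gene function, with earlier results of these data known. All 38 were found by symbol in both gene lists. Collagen chains are modified in the endoplasmic reticulum by prolyl and lysyl hydroxylases, fold into a triple helix with the help of dedicated chaperones, are secreted as procollagen, lose their propeptides to extracellular proteases, and are cross-linked by lysyl oxidases. In the mammary gland the fibroblasts around ducts and in the fat pad make most of this matrix, through which the ducts grow at puberty.

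The data were droplet-based single-cell RNA counts of mammary stromal cells from female wildtype C57BL/6 mice, with 1 library from puberty (4 weeks of age) and 1 from virgin adults (9 weeks). The labels give 2 females for each stage, and whether 1 library held cells of both is not given in the sources used here. Both libraries were marked as replicate 2, and the cells were sorted as negative for lineage markers (Lin) and for CD24. That sort takes out most immune, endothelial and epithelial cells, so the values say nothing of collagen RNA in those cells. With 1 library per stage there was no replicate check and no test, and each difference below is between these 2 libraries. Intervals in parentheses after a value are 95% intervals that cover counting error only.

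The pubertal library held 255274670 unique molecular identifiers (UMIs, each marking a captured transcript) in 21688 barcodes, and the adult library 259549498 in 23183. Cells were kept with at least 500 genes and at most 10% mitochondrial UMIs, which left 21534 and 22972. Of these, 18878 (87.7%) pubertal and 20999 (91.4%) adult cells had a UMI of Pdgfra, the fibroblast receptor. Their median depths were 12187 and 11265 UMIs. The fibroblast proteoglycan genes Dcn and Lum were counted in 99.9% and 98.3% of pubertal Pdgfra+ cells and in 99.6% and 97.6% of adult ones. The libraries shared 145 barcode sequences, 0.669% and 0.625% of their barcodes. Mitochondrial UMIs had a median of 1.04% and 1.18%, ribosomal protein genes took 8.35% and 7.52% of UMIs, and a list of 10 dissociation-stress genes summed to 20200 counts per 1000000 UMIs (CPM) in pubertal and 25500 CPM in adult Pdgfra+ cells. Mural markers in Pdgfra+ cells summed to 95.2 and 57.7 CPM, and endothelial markers to 44.6 and 21.7 CPM. The part of these differences in the collagen values was not tested.

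Pdgfra+ cells were further drawn by marker UMIs into 5 overlapping subsets. Cells with both Pi16 and Dpp4, which mark fibroblast progenitors, made up 74.1% (73.4 to 74.7) of pubertal and 42.2% (41.5 to 42.8) of adult Pdgfra+ cells. Gdf10 or Fmo2 cells made up 39.5% and 47.9%, Thbs4 or Bmp5 cells 4.91% and 14.8%, cells with at least 2 UMIs of the preadipocyte gene Fabp4 9.42% and 12.2%, and Crabp1 cells 1.53% and 12.7%. Cells in 2 or more subsets were 30.7% of pubertal and 35.5% of adult Pdgfra+ cells. Mural cells, the pericytes and smooth muscle of vessels, were taken as cells without Pdgfra and with Myh11 or Rgs5, and numbered 783 and 457. Their smooth muscle gene Acta2 was counted in 92.1% of pubertal and 76.8% of adult ones.

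The collagen genes were among the most counted of all in these fibroblasts, and the major interstitial chains took a smaller share in the adult library. The 38 genes together took 6.10% of the UMIs of pubertal Pdgfra+ cells and 3.82% of those of adult ones. The 15 chains alone went from 4.59% to 2.86%, an adult over pubertal ratio of 0.624 (0.624 to 0.625). By UMIs, which were not divided by transcript length, Col3a1 ranked first among all genes at puberty and Col1a1 ranked 5, against 3 and 9 in the adult. In such sums a smaller share of a cell type and less RNA per cell cannot be told apart.

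**Figure D1:**
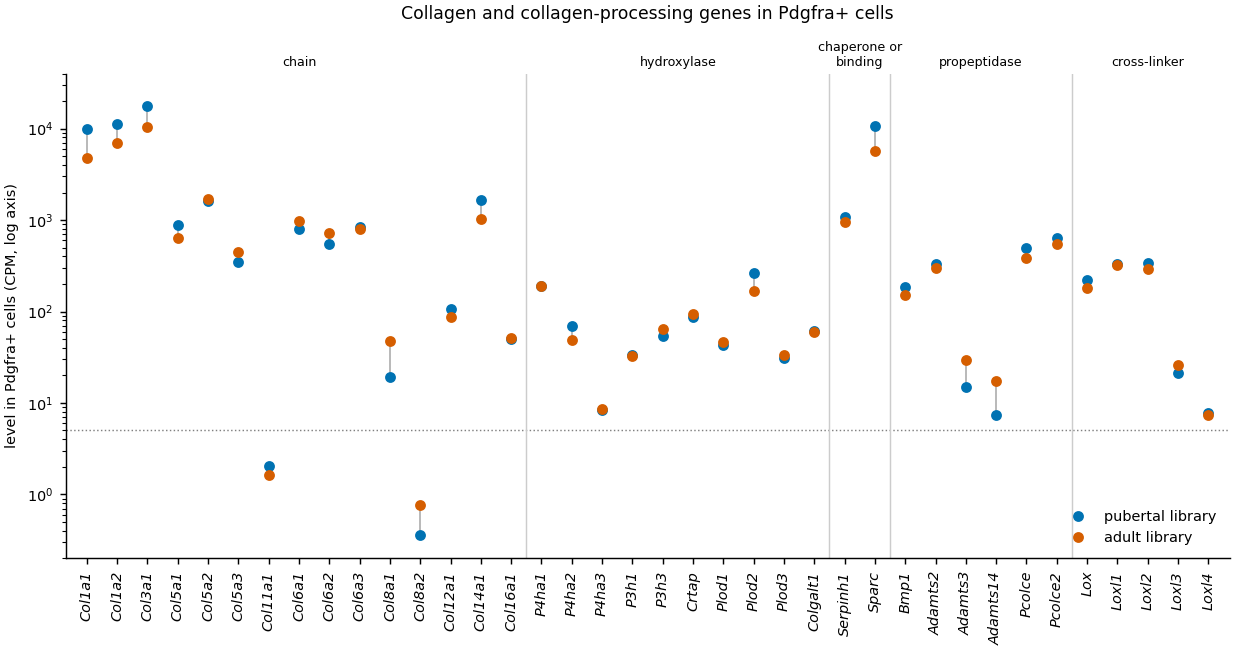
Level of each of the 38 genes in Pdgfra+ cells (y axis, CPM on a log axis) in the pubertal and the adult library, 1 point per library, grouped by role, with the dotted line at 5 CPM. Col1a1, Col1a2, Col3a1 and Sparc lie lower in the adult library (4820 against 9960 CPM for Col1a1), Col8a1, Adamts3 and Adamts14 lie higher, and most hydroxylases and cross-linkers lie close together.

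Single cells gave the same order. The 15 chains took a median of 4.05% of the UMIs of a pubertal Pdgfra+ cell, with the 10th and 90th percentiles at 1.97% and 7.40%. In adult Pdgfra+ cells the median was 2.23%, with percentiles of 1.08% and 4.78%. The 2 distributions overlapped, since the adult 90th percentile lay above the pubertal median. The type I and III chains accounted for most of this (medians of 3.36% and 1.63%), while the type VI chains had medians of 0.185% and 0.198%. The median chain share was lower in the adult library within each subset, from 3.98% to 2.08% in Pi16+Dpp4+ cells and from 3.28% to 2.79% in Fabp4 cells, the smallest step.

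**Figure D2:**
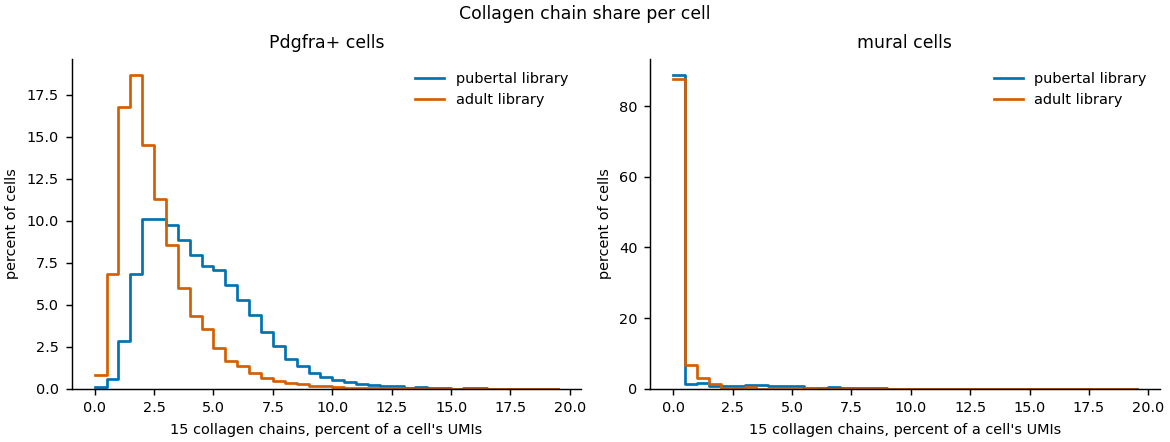
Share of each cell's UMIs that came from the 15 collagen chains (x axis, percent in bins of 0.5) against the percent of cells in that bin, for Pdgfra+ cells and for mural cells of each library. The adult Pdgfra+ curve lies to the left of the pubertal one, with medians of 2.23% and 4.05%, and most mural cells of both libraries lie in the first bin.

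Of the 38 genes, 36 reached a mean of 5 CPM over both libraries in Pdgfra+ cells and were compared by size, with a 1.5-fold difference as the mark. Only Col11a1 and Col8a2 were under that mean. Col1a1, Col1a2, Col3a1, Col14a1, Plod2 and Sparc, 6 of 36, were at least 1.5-fold lower in the adult library, where 4.89% of all 10063 genes compared were. Col8a1, Adamts3 and Adamts14, 3 of 36, were at least 1.5-fold higher, beside 12.6% of all genes, so the higher count was not above the background. The median log2 ratio was -0.07 over the 36 genes and 0.14 over all genes. Scaling by trimmed mean of M values or by median of ratios lowered every log2 ratio by that 0.14, so differences are best read relative to it.

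Type I collagen, built from the Col1a1 and Col1a2 chains, is the main fibril of connective tissue, and type III, built from Col3a1, accompanies it in soft tissue. Col1a1 (ENSMUSG00000001506) went from 9960 CPM in the pubertal to 4820 CPM in the adult library, a ratio of 0.484 (0.483 to 0.486). Col1a2 (ENSMUSG00000029661) went from 11100 to 6970 CPM, a ratio of 0.626 (0.625 to 0.628). Col3a1 (ENSMUSG00000026043) went from 17900 to 10300 CPM, a ratio of 0.575 (0.574 to 0.576). All 3 chains were lower in the adult library under each of the 11 alternatives tried. Promoter stretches of Col1a2 and Col3a1, which were lower together, are shown beside those of Col6a1 and Col8a1, which were not lower in adult Pdgfra+ cells.

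RefSeq promoter entries on GRCm38.p6 were matched for 28 of the 38 genes, and the 120 bases printed for each gene are the nearest before the RefSeq transcription start that lie outside GENCODE M21 exons (ending 126 bases before it for Col1a2, 125 for Col6a1 and 1 for the others). They run 5′ to 3′ along the gene's strand, at chr6:4505373-4505492 (plus strand, Col1a2), chr1:45311418-45311537 (plus, Col3a1), chr10:76726169-76726288 (minus, Col6a1) and chr16:57754738-57754857 (minus, Col8a1). Capitals mark the letters TATAAA, which were searched together with CCAAT on both strands.
Col1a2: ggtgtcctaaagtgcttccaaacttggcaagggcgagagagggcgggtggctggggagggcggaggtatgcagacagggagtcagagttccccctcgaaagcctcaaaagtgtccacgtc
Col3a1: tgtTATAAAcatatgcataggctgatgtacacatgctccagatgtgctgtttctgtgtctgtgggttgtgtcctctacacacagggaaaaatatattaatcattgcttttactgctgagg
Col6a1: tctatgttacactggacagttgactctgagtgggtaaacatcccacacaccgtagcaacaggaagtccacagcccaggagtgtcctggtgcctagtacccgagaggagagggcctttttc
Col8a1: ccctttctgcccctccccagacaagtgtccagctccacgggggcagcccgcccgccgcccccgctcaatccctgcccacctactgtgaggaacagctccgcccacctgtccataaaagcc
In the 250 bases before the start, TATAAA or its reverse complement TTTATA was present for 3 of the 28 genes (Col3a1, Crtap and Plod1) and in 12.4% of 32851 promoters. CCAAT or ATTGG was present for 6 of the 28 (Col1a2 among them) and in 33.8% of promoters. These matches describe letters only, and Col1a2 and Col3a1 did not share either motif in this window.

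The other fibrillar chains differed among themselves. Type V collagen sits inside type I fibrils and sets their width. Its chain Col5a1 was counted at 888 and 640 CPM, a ratio of 0.721 (0.717 to 0.726), so it was lower in the adult library. It did not pass 1.5-fold by CPM (log2 -0.47) but did by trimmed mean of M values (-0.61). Col5a2 was at 1600 and 1720 CPM, and its small difference changed sign with the scaling (log2 0.10, or -0.04 by trimmed mean of M values). Col5a3 was at 351 and 446 CPM, a ratio of 1.27 (1.26 to 1.28), and it kept its sign in each alternative. Col11a1, a chain of cartilage fibrils, was nearly absent from the pool at 2.06 and 1.61 CPM.

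Type VI collagen forms beaded filaments around cells and is put together from Col6a1, Col6a2 and Col6a3. Col6a1 was at 792 and 970 CPM and Col6a2 at 549 and 731 CPM, ratios of 1.22 (1.22 to 1.23) and 1.33 (1.32 to 1.34). Both differences turned when each subset was given equal weight (log2 -0.11 and -0.09). That setting averaged the profiles of each subset's cells that met no other rule and of all remaining Pdgfra+ cells. At puberty the Crabp1 profile in it rested on 100 cells and the Thbs4 or Bmp5 profile on 261. Col6a3 was at 844 and 800 CPM, a ratio of 0.947 (0.941 to 0.953). Summed, the type VI chains had a ratio of 1.14 (1.14 to 1.15), beside 0.595 (0.595 to 0.596) for the fibrillar chains.

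The fibril-associated chains, which bind the surface of fibrils, split. Col14a1 was counted at 1660 and 1040 CPM, a ratio of 0.626 (0.623 to 0.630), and Col12a1 at 106 and 86.1 CPM, a ratio of 0.812 (0.797 to 0.827). Col16a1 was at 50.4 and 51.9 CPM. The short chain Col8a1, found in network-forming collagen of vessels and stroma, went the other way, at 19.0 and 47.2 CPM, a ratio of 2.48 (2.40 to 2.57). Its partner Col8a2 gave 86 and 191 UMIs, 0.363 and 0.772 CPM.

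The hydroxylases, which act inside the cell on each new chain, did not follow the major chains as a class. The 6 genes of the prolyl hydroxylase group, counted with the P3h1 partner Crtap, summed to 440.9 and 441.1 CPM, a ratio between 0.992 and 1.01. P4ha1, the catalytic subunit counted most, was at 189 and 191 CPM, a ratio of 1.01 (0.999 to 1.02). P4ha2 was lower at 69.6 and 49.3 CPM, a ratio of 0.709 (0.693 to 0.726), and P4ha3 was at 8.40 and 8.59 CPM. P3h1 and Crtap, partners in a complex that hydroxylates single prolines, were at 33.3 and 32.6 CPM and at 87.2 and 94.9 CPM. P3h3, a related hydroxylase, was at 53.8 and 64.9 CPM, a ratio of 1.21 (1.18 to 1.23).

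Among the lysyl hydroxylases, only Plod2 passed the 1.5-fold mark. Plod2, which modifies the telopeptide lysines that later enter cross-links, was counted at 265 and 167 CPM, a ratio of 0.629 (0.621 to 0.637). It was lower in the adult library in each of the 5 subsets, with ratios from 0.535 (0.507 to 0.565) in Crabp1 cells to 0.684 (0.657 to 0.712) in Thbs4 or Bmp5 cells. In Gdf10 or Fmo2 cells that met no other subset rule its ratio was 0.916 (0.878 to 0.956). Plod1 and Plod3 were at 43.2 and 46.0 CPM and at 31.2 and 33.3 CPM, and Colgalt1, a galactosyltransferase of collagen, was at 61.0 and 60.1 CPM. The signs of P4ha1, P4ha3, Crtap, Plod1, Plod3 and Col16a1 changed under at least 1 scaling, so no direction is given for them.

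The collagen-binding genes parted in the same way. Sparc, a secreted glycoprotein that binds fibrillar collagen and takes part in fibril assembly, was counted at 10700 and 5640 CPM, a ratio of 0.528 (0.527 to 0.529), close to those of Col1a1 and Col3a1. Serpinh1, the procollagen chaperone of the endoplasmic reticulum, was at 1070 and 952 CPM, a ratio of 0.891 (0.886 to 0.896). Sparc ranked 4 among all genes by UMIs at puberty.

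The propeptidases cut procollagen outside the cell. Bmp1, which removes the C-terminal propeptide, was at 187 and 153 CPM, a ratio of 0.819 (0.808 to 0.831). Adamts2, the main protease for the N-terminal propeptide, was at 333 and 302 CPM, a ratio of 0.906 (0.897 to 0.915). Its relatives Adamts3 and Adamts14 were far less abundant and higher in the adult library. Adamts3 was at 14.5 to 15.5 CPM (95% interval) at puberty and 29.2 CPM in the adult, a ratio of 1.95 (1.87 to 2.03), and Adamts14 at 7.44 and 17.3 CPM, a ratio of 2.32 (2.19 to 2.45). The enhancers of C-terminal cleavage, Pcolce and Pcolce2, were at 498 and 385 CPM and at 629 and 546 CPM, ratios of 0.773 (0.767 to 0.780) and 0.868 (0.862 to 0.875). With equal weight for each subset, the sign of Pcolce2 turned (log2 0.11), as did that of Adamts3 (-0.25).

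The cross-linking oxidases differed little between the libraries, and none passed 1.5-fold. Lox was at 221 and 182 CPM, a ratio of 0.823 (0.813 to 0.834), Loxl1 at 335 and 319 CPM, and Loxl2 at 342 and 290 CPM. Loxl3 was at 21.1 and 26.2 CPM, a ratio of 1.24 (1.19 to 1.29), and Loxl4 at 7.72 and 7.37 CPM, with a sign that changed under equal subset weight (0.23). The 5 genes summed to a ratio of 0.889 (0.883 to 0.894).

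The stage comparison was then repeated within each subset. In Pi16+Dpp4+ cells 5 of 36 genes were at least 1.5-fold lower in the adult library (3.66% of all genes) and 2 were higher (10.3%). In Gdf10 or Fmo2 cells 6 of 36 were lower (5.46%) and 3 higher (11.1%), and in Thbs4 or Bmp5 cells 5 of 37 were lower (5.55%) and 1 higher (6.62%). One of these 5, Col11a1, reached the mean only through its pubertal level, and without it 4 of 36 were lower. In Fabp4 cells 2 of 34 were lower (5.32%) and 1 higher (8.68%), and in Crabp1 cells 8 of 36 were lower (6.74%) and 0 higher (9.31%). Each of these subsets had a median log2 ratio over the genes below that over all genes, by the widest margin in Crabp1 cells (-0.27 and 0.09) and the narrowest in Fabp4 cells (-0.01 and 0.10). In the cells that met 1 subset rule only, a division made after the values were seen, 25 of the 33 calls in these subsets were kept. Further genes passed 1.5-fold only in those cells, most of them lower in the adult library, such as Adamts3 in Crabp1 cells (0.491, 0.419 to 0.578). The higher ones were Pcolce in Crabp1 cells (2.80, 2.29 to 3.46), Pcolce2 in Thbs4 or Bmp5 cells (2.17, 1.91 to 2.47) and Loxl4 in Pi16+Dpp4+ cells (1.56, 1.42 to 1.73).

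Col1a1, Col1a2, Col3a1 and Sparc were lower in the adult library within all 5 subsets, by different amounts. Col1a1 went from 9750 to 4170 CPM in Pi16+Dpp4+ cells, a ratio of 0.428 (0.426 to 0.429), and from 7500 to 5160 CPM in Fabp4 cells, a ratio of 0.688 (0.684 to 0.693). In Crabp1 cells it went from 9760 to 6340 CPM, a ratio of 0.650 (0.643 to 0.657). Fabp4 cells, the lowest of the 5 at puberty, were thus above Pi16+Dpp4+ cells in the adult library. Sparc had ratios of 0.480 (0.479 to 0.481) in Pi16+Dpp4+ cells and 0.749 (0.745 to 0.753) in Fabp4 cells, and Col3a1 of 0.536 (0.535 to 0.537) and 0.846 (0.843 to 0.850). In Fabp4 cells that met no other rule, Col1a1 was at 0.874 (0.861 to 0.888). Whether these subsets differ in their stage ratio could not be tested with 1 library per stage.

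The 8 lower genes of Crabp1 cells were Col1a1, Col8a1, Col11a1, Col12a1, Col14a1, P4ha3, Plod2 and Lox. Col12a1 was at 330 and 81.6 CPM there, and Lox, the founding member of the lysyl oxidases, at 351 and 209 CPM, a ratio of 0.597 (0.564 to 0.632). Of the pubertal Crabp1 cells, 15.9% also met the Thbs4 or Bmp5 rule, as did 9.92% of the adult ones. In the 100 pubertal and 1042 adult Crabp1 cells that met no other rule, 5 of the 8 were still at least 1.5-fold lower, with ratios of 0.136 (0.122 to 0.153) for Col12a1, 0.473 (0.433 to 0.516) for Plod2 and 0.479 (0.430 to 0.534) for Lox, and Col11a1 and Col14a1 as the others. The other 3 were not. Col1a1 had a ratio of 0.715 there, P4ha3 gave 2 and 34 UMIs, a ratio of 1.97 (0.506 to 17.0), and Col8a1 gave 0 and 8 UMIs. In Fabp4 cells only Col14a1, at 678 and 406 CPM, and Plod2, at 230 and 139 CPM, were lower past 1.5-fold. Lox was lower in the adult library in each subset, with ratios up to 0.886 (0.853 to 0.920) in Thbs4 or Bmp5 cells. There were 0.587 (0.580 to 0.595) and 0.399 (0.392 to 0.406) Lox UMIs per Loxl1 UMI in Pi16+Dpp4+ cells, and 0.960 and 0.863 in Thbs4 or Bmp5 cells, the lowest and the highest of the 5 subsets at both stages. After thinning, 36.6% of pubertal and 31.3% of adult Pdgfra+ cells had a Lox UMI (67.7% and 55.9% unthinned), beside 19.4% and 11.5% of mural cells.

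**Figure D3:**
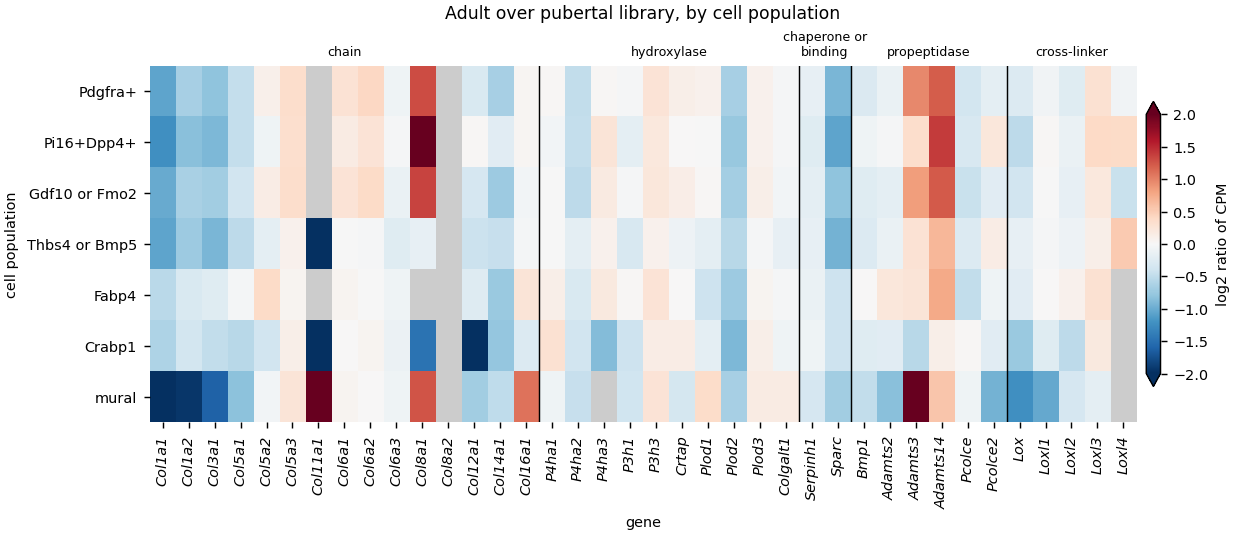
Adult over pubertal ratio (color, log2 of the CPM ratio, clipped at 2) of each gene in Pdgfra+ cells, 5 subsets and mural cells, with grey where the mean over both libraries was under 5 CPM. Col1a1, Col1a2, Col3a1, Plod2 and Sparc are blue in each row, and Col8a1 and Adamts3 change color between rows.

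Col14a1 was at least 1.5-fold lower in the adult library in 3 subsets, with ratios of 0.605 in Gdf10 or Fmo2 cells, 0.598 in Fabp4 cells (0.726 in those that met no other rule) and 0.585 in Crabp1 cells. In Thbs4 or Bmp5 cells its ratio was 0.726, and in Pi16+Dpp4+ cells, at 1950 and 1650 CPM, it was 0.850 (0.846 to 0.855). Adamts14 was at least 1.5-fold higher in the adult library in 4 of the 5 subsets, with ratios from 1.60 (1.30 to 1.97) in Thbs4 or Bmp5 cells to 2.63 (2.44 to 2.83) in Pi16+Dpp4+ cells. In Crabp1 cells its ratio was 1.09 (0.851 to 1.40), and in Thbs4 or Bmp5 cells that met no other rule 1.09 (0.763 to 1.58). After each cell was thinned to 3000 UMIs, Adamts14 was counted in 2.10% (1.90 to 2.32) of pubertal and 4.43% (4.15 to 4.72) of adult Pdgfra+ cells (7.95% and 15.5% unthinned). Mural cells, at median depths of 6334 and 6126 UMIs, gave 2.06% (1.16 to 3.38) and 2.94% (1.48 to 5.20) after thinning, and the pubertal share in Pdgfra+ cells lay within the mural interval. At puberty mural cells without a Dcn UMI held Adamts14 at 7.13 CPM (4.52 to 10.7) and those with one at 5.34 CPM (2.56 to 9.82), so mural cells are not shown to lack this gene.

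Col8a1 had the steepest pattern among subsets of all 38 genes. In Thbs4 or Bmp5 cells its level was 321 CPM at puberty and 284 CPM in the adult, and in the other Pdgfra+ cells at 3.26 and 2.89 CPM, so it was 98.4-fold (90.9 to 107) and 98.5-fold (90.8 to 107) higher there. Of its UMIs in Pdgfra+ cells, 3772 of 4506 at puberty and 11088 of 11690 in the adult came from these cells. Within the subset the adult level was slightly lower, a ratio of 0.886 (0.854 to 0.919), and in those of its cells that met no other rule 0.586 (0.551 to 0.623), while the pool as a whole had 2.48. The share of Pdgfra+ cells that met the Thbs4 or Bmp5 rule, 4.91% and 14.8%, moved with the pooled level. After thinning, 26.4% (23.6 to 29.4) of pubertal and 26.2% (24.6 to 27.8) of adult Thbs4 or Bmp5 cells had a Col8a1 UMI (36.9% and 38.9% unthinned), beside 1.10% and 1.60% of mural cells. Endothelial-like cells gave 14 and 35 Col8a1 UMIs, or 103 and 165 CPM, and are no background for this gene.

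The overlap between subsets touched this gene. In Pi16+Dpp4+ cells Col8a1 was at 12.2 and 54.9 CPM, a ratio of 4.48 (4.27 to 4.71), but 3.02% of the pubertal and 15.6% of the adult Pi16+Dpp4+ cells also met the Thbs4 or Bmp5 rule. In Pi16+Dpp4+ cells that met no other rule it was at 3.80 (3.45 to 4.17) and 3.27 (2.82 to 3.77) CPM, a ratio of 0.861 (0.722 to 1.02). With equal weight for each subset the log2 ratio of Col8a1 in Pdgfra+ cells was -0.58, against 1.31.

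**Figure D4:**
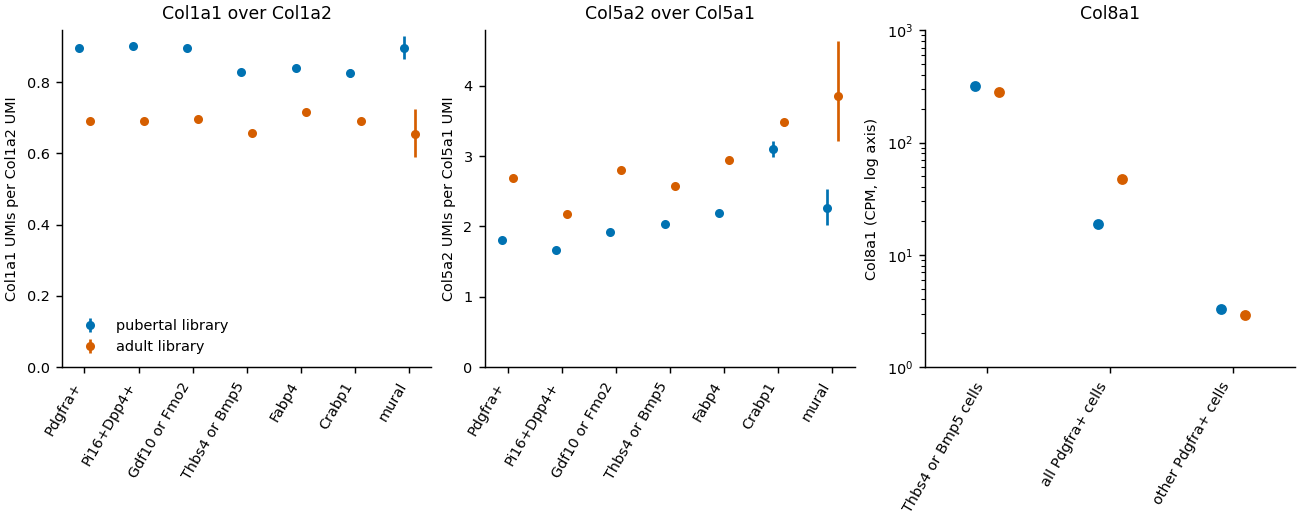
Left and middle, UMIs of Col1a1 per Col1a2 UMI and of Col5a2 per Col5a1 UMI (y axes) by population in each library, with 95% counting intervals, and right, Col8a1 (CPM, log axis) in Thbs4 or Bmp5 cells, all Pdgfra+ cells and the other Pdgfra+ cells. The adult ratio of Col1a1 to Col1a2 is lower in each population (0.692 against 0.895 in Pdgfra+ cells), and Col8a1 differs between libraries mainly in the pooled cells.

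The 2 type I chains did not keep a fixed proportion. In Pdgfra+ cells there were 0.895 (0.893 to 0.896) Col1a1 UMIs per Col1a2 UMI at puberty and 0.692 (0.690 to 0.694) in the adult. The ratio was lower in the adult library in each of the 5 subsets, from 0.826 to 0.690 in Crabp1 cells and from 0.903 to 0.690 in Pi16+Dpp4+ cells. UMIs are counted near the 3′ end, so these are ratios of counts and not of chains. The type V ratio of Col5a2 to Col5a1 was 1.81 (1.80 to 1.82) and 2.69 (2.67 to 2.70), higher in the adult library in each subset too, and highest in Crabp1 cells (3.10 and 3.48). Col6a3 gave 1.07 and 0.825 UMIs per Col6a1 UMI, and in Crabp1 cells only 0.554 (0.531 to 0.579) and 0.511 (0.503 to 0.519).

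The subsets were next compared with the other Pdgfra+ cells of the same library, and a gene was counted where it passed 1.5-fold in both. In Pi16+Dpp4+ cells Pcolce2, Bmp1 and Col14a1, 3 of 36, were higher (6.70% of all genes), and Plod1, Adamts3 and Col6a2 were lower (9.18%). Pi16+Dpp4+ cells that met no other rule were also set against all remaining Pdgfra+ cells, which then included Pi16+Dpp4+ cells that met another rule. Against these, Col14a1 alone was still higher past 1.5-fold in both libraries (1.56 and 2.49). Pcolce2 was at 1.35 and 2.19 and Bmp1 at 1.32 and 1.58. Their levels were not under those of the whole subset, at 726 and 936 CPM for Pcolce2 (714 and 833 in the whole subset) and 214 and 214 CPM for Bmp1 (204 and 193). Of the lower genes, Plod1 and Adamts3 were still lower in that comparison, and Col6a2, at 0.679 and 0.520, was not in both. Its level was 440 and 428 CPM, beside 462 and 559 CPM in the whole subset. Col14a1 was at 1950 CPM against 731 at puberty and 1650 against 458 in the adult, 2.66-fold (2.64 to 2.69) and 3.61-fold (3.58 to 3.64) higher. Pcolce2 was 2.06-fold (2.02 to 2.09) and 3.06-fold (3.02 to 3.10) higher, while its relative Pcolce was not (0.825 and 0.973). There were thus 1.49 to 1.52 Pcolce2 UMIs at puberty and 2.17 to 2.22 in the adult (95% intervals) per Pcolce UMI in these cells, and 0.561 and 0.759 in Thbs4 or Bmp5 cells. Bmp1, the protease that both enhance, was 1.56-fold (1.52 to 1.60) and 1.68-fold (1.64 to 1.71) higher.

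Gdf10 or Fmo2 cells, the subset least set apart by these counts, had 0 of 36 genes higher (2.01%), and Col8a1 alone was lower (1.86%). Of these cells, 55.9% at puberty and 30.4% in the adult also met the Pi16+Dpp4+ rule. Gdf10 or Fmo2 cells that met no other rule were set against all remaining Pdgfra+ cells, which then included Gdf10 or Fmo2 cells that met another rule. Further genes were lower past 1.5-fold in both libraries in that comparison. These were Col12a1 (0.402 and 0.305), Col14a1 (0.517 and 0.435), Loxl1 (0.533 and 0.586) and P4ha3 (0.483 and 0.639). P4ha3 was at 4.28 and 5.81 CPM there, beside 7.98 and 6.95 CPM in the cells outside the whole subset. In Thbs4 or Bmp5 cells 5 of 37 were higher, Col8a1, Col11a1, Col12a1, Col6a3 and Adamts3 (3.13%), and 0 were lower (2.42%). Col8a1 and Col11a1 were under 5 CPM in the other cells and reached the mean only through these cells, which leaves 3 of 35. Col12a1 was at 236 CPM against 99.3 at puberty and 176 against 69.4 in the adult, 2.38-fold (2.29 to 2.47) and 2.53-fold (2.46 to 2.60) higher. Col6a3 was 1.62-fold (1.59 to 1.64) and 1.51-fold (1.49 to 1.53) higher.

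In Fabp4 cells Col5a3, P4ha3 and Adamts14, 3 of 36, were higher (3.85%), and Pcolce2, Col14a1, Col8a1 and Loxl4 were lower (5.14%), of which Col8a1 and Loxl4 reached the mean only through the other cells. Col5a3 was at 710 CPM against 307 at puberty and 741 against 394 in the adult, 2.31-fold (2.27 to 2.35) and 1.88-fold (1.85 to 1.91) higher. Within this subset its levels were close between the libraries, a ratio of 1.04 (1.02 to 1.06), beside 1.27 in the pool. Col14a1 was at 678 against 1780 CPM and at 406 against 1160 CPM, the opposite of its place in Pi16+Dpp4+ cells.

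In Crabp1 cells Col6a1, Col6a2, Col11a1, P3h1 and Adamts3, 5 of 37, were higher (8.94%), and Pcolce, Pcolce2, Col14a1 and Loxl4 were lower (8.85%). Col11a1 reached the mean only through the Crabp1 cells and Loxl4 only through the others, and without these genes 4 of 35 were higher and 3 lower. As in Pi16+Dpp4+ cells, these counts were near the shares over all genes. Adamts3 was at 87.8 CPM against 13.6 at puberty and 59.4 against 24.6 in the adult, 6.43-fold (5.76 to 7.17) and 2.41-fold (2.29 to 2.54) higher. Pcolce2 was at 174 against 637 CPM and at 149 against 606 CPM. There were only 289 pubertal Crabp1 cells, of which 100 met no other rule.

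Col11a1 was rare but uneven. At puberty it was at 21.5 CPM (19.0 to 24.4) in Thbs4 or Bmp5 cells and 29.3 CPM (24.3 to 34.9) in Crabp1 cells, from 253 and 124 UMIs. In the adult it was at 3.15 CPM (2.62 to 3.76) and 5.30 CPM (4.54 to 6.15) there. In those cells of the 2 subsets that met no other rule, the pubertal order was reversed, at 55.8 CPM (46.9 to 65.8) and 22.9 CPM (15.3 to 32.9). Their adult levels were 6.49 and 7.24 CPM. In Pi16+Dpp4+ cells it was at 0.308 and 0.397 CPM. Col12a1 also stood out in pubertal Crabp1 cells, at 330 CPM against 102 in the other cells, and not in adult ones (81.6 against 86.8).

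**Figure D5:**
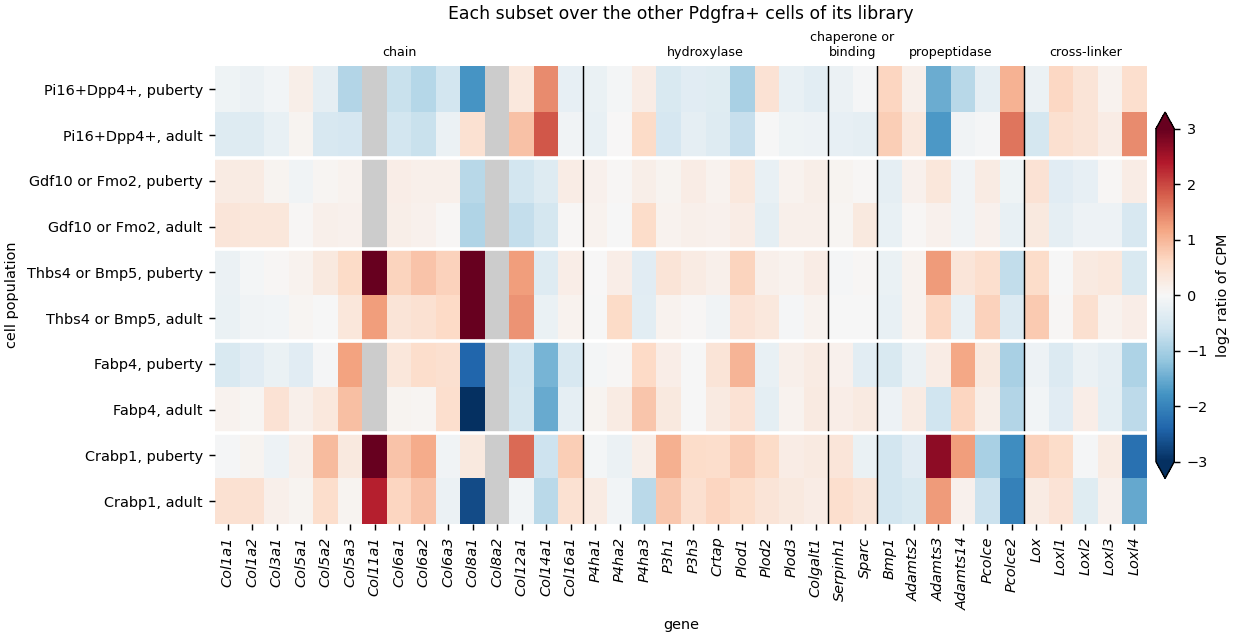
Ratio of each subset to the other Pdgfra+ cells of its library (color, log2 of the CPM ratio, clipped at 3) for each gene, 1 row per subset and library, grey where the mean level was under 5 CPM. Col14a1 and Pcolce2 are red in Pi16+Dpp4+ cells and blue in Fabp4 and Crabp1 cells, and Col8a1 is dark red only in Thbs4 or Bmp5 cells.

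Mural cells held less of this program than Pdgfra+ cells. Members that are not chains summed to 4223 and 2794 CPM in mural cells, beside 15190 and 9593 CPM in Pdgfra+ cells. Mural Sparc alone was at 2960 and 1820 CPM. Of 35 genes at the 5 CPM mean, 30 were at least 1.5-fold lower than in Pdgfra+ cells in both libraries (18.9% of all genes), and 0 were higher (22.5%). The chains took a median of 0.0759% of a pubertal mural cell's UMIs and 0.0681% of an adult one's, beside 0.104% and 0.0362% in the 18 and 63 endothelial-like cells. At median depths of 3724.5 and 2523 UMIs, the latter medians rest on few UMIs per cell, and the chains include Col8a1. Summed over cells, the chains took 0.514% and 0.203% of mural UMIs, against 0.120% and 0.0463% in endothelial-like cells. The fibrillar chains alone, which endothelial cells should not make, summed to 4555 and 1479 CPM in mural cells and to 789.9 and 264.8 CPM in endothelial-like cells. Between the libraries, 11 of 35 genes were lower in adult mural cells (6.19%) and 4 were higher (18.6%), of which Col11a1 and Adamts3 reached the mean only through their adult level. Mural Col1a1 was at 1110 CPM at puberty and 211 CPM in the adult. Dcn, the fibroblast gene, was counted in 33.7% and 42.0% of mural cells. In the mural cells without a Dcn UMI, a division made after the values were seen, Col1a1 was at 93.3 (83.0 to 104) and 94.7 (79.8 to 111) CPM, and in those with one at 2860 and 334 CPM.

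In mural cells, epithelial markers summed to 34.9 CPM at puberty and 610 CPM in the adult, and Schwann markers to 12.2 and 50.4 CPM. Col11a1 was at 2.94 and 19.8 CPM in mural cells. Of the 58 adult UMIs, 57 lay in the 30 cells with an epithelial marker UMI, and mural cells without one held 8 and 1. The share of free RNA in the mural values was not tested. Col1a1 in endothelial-like cells was at 162 (102 to 246) and 42.6 (19.5 to 80.8) CPM, so the lower adult value was seen there too, at levels far under those of Pdgfra+ cells.

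Other genes of the pathway, taken from lists by function, gave the surroundings of these values in Pdgfra+ cells. Of 28 genes of the procollagen secretory pathway, 26 reached 5 CPM, of which 1 was at least 1.5-fold higher and 1 lower in the adult library, with a median log2 ratio of -0.05. The lowest ratios were those of Hspa5, the general chaperone of the endoplasmic reticulum (2000 and 1180 CPM, 0.590), Tll1, a Bmp1-like protease (0.711), and Mia3, which loads procollagen into transport carriers (0.817). The highest were those of Colgalt2 (7.93 and 11.9 CPM, a ratio between 1.42 and 1.59), Fkbp9 (1.25) and Klhl12 (1.24).

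Of 14 genes for collagen turnover and receptors, 11 reached 5 CPM, with 2 higher and 1 lower and a median of 0.18. Itga2, a subunit of a collagen-binding integrin, was at 53.7 and 21.9 CPM, a ratio of 0.407 (0.394 to 0.420), and another, Itga1, at 18.0 and 32.3 CPM, a ratio of 1.79 (1.73 to 1.86). Fap, a protease of activated fibroblasts, had a ratio of 1.52 (1.51 to 1.54) and Itga11 of 1.38 (1.35 to 1.41). The matrix protease Mmp2 was at 798 and 757 CPM (0.949) and the lysosomal collagenase Ctsk at 407 and 399 CPM (0.982).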

How the data were processed

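Droplet-based single-cell RNA counts were taken from 1 pubertal and 1 adult library. Per the file headers, the authors made the deposited matrices of raw UMI counts with Cell Ranger 8.0.1. The submitters' notes name mm10, and the annotation release is not given in the sources used here. The study's methods name another kit, software version and pubertal age, and the labels and headers were followed. Only the sums, ratios and scalings were computed here. UMIs were summed per gene over the cells of a population and divided to counts per 1000000 UMIs (CPM). Poisson, conditional binomial and Clopper-Pearson 95% intervals cover counting error only. Doublets were kept, and a version without the highest Scrublet scores (scanpy 1.11.5) was tried. For shares of cells, each cell was thinned to 3000 UMIs. Trimmed mean of M values came from edgeR. The ratio code was tested on simulated counts. Members and lists were chosen with earlier results of these data known. All 38 genes are named, and from each other list the 3 highest and 3 lowest ratios at a mean of 5 CPM or more. Col4a1 and Col4a2 were added to these. Depth was 255274670 and 259549498 UMIs.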

Additional observations from a re-analysis of the deposited data

Results flagged for a closer look

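2 genes had stage ratios of opposite direction in different populations, each past 1.5-fold with a counting interval on one side of 1. The log2 ratio of adult over pubertal Col11a1 was -2.77 in Thbs4 or Bmp5 cells and 2.75 in mural cells. The mural value rested on 15 pubertal and 58 adult UMIs, nearly all of the latter in 30 cells that also held epithelial marker UMIs. The log2 ratio of Col8a1 was -1.48 in Crabp1 cells, from 98 and 269 UMIs, where 15.9% of pubertal and 9.92% of adult cells also met the Thbs4 or Bmp5 rule and the cells that met no other rule held 0 and 8 of its UMIs, and 2.17 in Pi16+Dpp4+ cells, a subset of which 15.6% of adult cells also met the Thbs4 or Bmp5 rule. With 1 library per stage neither difference between populations was tested.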

How the results depend on the processing

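With 1 library per stage, leaving out a replicate was not possible. No paired analysis was possible because the groups share fewer than 2 replicate numbers. For the 10 members past 1.5-fold in Pdgfra+ cells (Col8a2 included, which was under 5 CPM), 107 of 110 values under 11 alternatives kept their sign and 105 stayed past that fold. The exceptions in sign came with equal weight for each subset, where log2 went from 1.31 to -0.58 for Col8a1, from 1.09 to -0.44 for Col8a2 and from 0.96 to -0.25 for Adamts3. Over all members, 212 of 418 values left the counting interval of the main value. Low counts limit Col11a1 and Col8a2 in most subsets. The cause of the changes below was not tested.

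The count of lower members went from 6 to 1 at 2-fold, and that of higher ones from 3 to 1 with equal subset weight. By trimmed mean of M values Col5a1 (log2 -0.61) and P4ha2 (-0.64) passed 1.5-fold lower too. The chain median, -0.08, was -0.22 with trimmed mean of M values or median of ratios, -0.11 with the members left out of the total, -0.17 as a mean of cells, -0.47 with equal subset weight, -0.10 without doublets, -0.09 at 2 Pdgfra UMIs and -0.21 thinned. The median of the other members, -0.07, was -0.21 with either of those scalings, -0.10 without members in the total, -0.22 as a mean of cells, -0.11 with equal subset weight and -0.21 thinned. Col1a1, -1.05, ran from -1.19 with either scaling through -1.12 thinned, -1.11 as a mean of cells, -1.08 without members in the total, -1.07 at 2 Pdgfra UMIs and -1.05 under the gene limit to -0.93 with equal weight. The chain share ratio, 0.624, was correspondingly 0.566, 0.594, 0.596, 0.610, 0.614, 0.622 and 0.640. With exclusive subsets, the cells of a subset that met another rule were counted among the other cells. Members higher in a subset went from 3 to 1 in Pi16+Dpp4+ cells with exclusive subsets, from 0 to 1 in Gdf10 or Fmo2 cells with no filter on low values, from 5 to 8 in Thbs4 or Bmp5 cells with exclusive subsets and to 3 at 2-fold, from 3 to 0 in Fabp4 cells at 2-fold, and from 5 to 8 in Crabp1 cells at 2 marker UMIs and to 2 at 2-fold.

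4 alternatives were chosen after the data were seen. Col1a1 in mural cells went from -2.40 to 0.02 without Dcn-positive cells. Col11a1 there went from 2.75 to -2.03 without cells with epithelial UMIs and to -1.23 without Dcn-positive cells. In cells that met no other rule, Col8a1 in Pi16+Dpp4+ cells went from 2.17 to -0.22 and P4ha3 in Crabp1 cells from -0.87 to 0.98. Of the stage calls within subsets, 25 of 33 were kept in such cells, and further genes passed 1.5-fold only there.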

Other observations

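Collagen chains outside the set, among them those of basement membranes and of transmembrane collagens, lay on the other side of the comparison in Pdgfra+ cells. Of 29 such genes listed, 17 reached a mean of 5 CPM, with a median log2 ratio of 1.08. Of these, 12 were at least 1.5-fold higher and 1 was lower in the adult library, beside 12.6% and 4.89% of all genes. The 12 included Col13a1 and Col24a1, which were under 5 CPM at puberty and reached the mean only through their adult level. Together the 29 genes were counted at 1460 CPM at puberty and 2880 CPM in the adult. The highest ratios were those of Col13a1, a transmembrane collagen (4.23 and 41.0 CPM, 9.68, 9.07 to 10.3), Col25a1, another one (5.48 and 34.4 CPM, 6.28, 5.93 to 6.67), and Col24a1, a minor fibrillar chain (1.74 and 8.57 CPM, a ratio of 4.94). The lowest were those of the basement membrane chains Col4a5 (103 and 64.1 CPM, 0.621) and Col4a4 (37.9 and 30.6 CPM, 0.807) and of Col20a1 (7.97 and 7.99 CPM, 0.941 to 1.07). The most counted of the 29, the basement membrane chains Col4a1 and Col4a2, were higher in the adult library. They were at 651 and 1230 CPM (a ratio of 1.90) and at 261 and 554 CPM (2.12). These are values of 2 libraries with no replicate check.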
